A study of Homo sapiens with 4 samples.

Results

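Amino acids enter a cell through carriers in the plasma membrane, and the mRNAs of 10 such carriers were followed in pancreatic cancer cells treated with NBT, with the MEK inhibitor trametinib, or with both. The 10 genes were SLC7A5, SLC3A2, SLC7A1, SLC7A6, SLC1A4, SLC1A5, SLC38A1, SLC38A2, SLC6A9 and SLC43A1. They were taken by gene symbol, with the cystine carrier left out, and all 10 were among the 16834 genes in the table. MIA PaCa-2, an established human line of pancreatic ductal adenocarcinoma (PDAC) that the labels give as wild type, was sequenced in 4 conditions: a control, NBT at 1 µM, trametinib at 5 µM, and both together, each for 12 h. NBT (neobractatin) is a natural compound of a Garcinia plant, and trametinib blocks the kinase MEK in the MAPK cascade. There was 1 library a condition, so no difference below has a replicate check, no p-value is given, and variation between cultures was not measured.

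The carriers differ in cargo and in how they are driven. SLC3A2 (CD98 heavy chain) is a glycoprotein that carries no amino acid itself and brings light chains such as SLC7A5 (LAT1) to the cell surface, where they exchange large neutral amino acids such as leucine for glutamine. Other carriers load the cell with the amino acids that such exchangers use, among them the glutamine carrier SLC1A5 and the sodium-coupled carriers SLC38A1 and SLC38A2. When amino acids run short or the endoplasmic reticulum is stressed, kinases phosphorylate the translation factor eIF2, translation of the transcription factor ATF4 increases, and ATF4 with C/EBP partners binds C/EBP-ATF response elements (CARE) at genes of amino acid uptake and synthesis. Several of the 10 carriers are commonly listed among the genes under such control.

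The library sums ran from 18776212 to 19614763 estimated counts, and 3 counts, the limit that a count of 0 allows, corresponded to 0.153 to 0.16 CPM (counts scaled to the library sum). DUSP6, a gene switched on by MAPK signaling, had 329 counts in the control, 521 with NBT, and 14 and 9 in the trametinib and combination libraries, so the trametinib labels matched the libraries. The epithelial markers in the table were KRT8, KRT18, EPCAM and CDH1, and they lay between 51.21 and 3799.23 TPM (a level scaled to gene length and to a fixed library sum). Their summed level was 7268.56 TPM in the control, 6105.53 after NBT, 3560.79 after trametinib and 2763.19 with both. Most of that sum was KRT8 and KRT18, at 3799.23 and 3141.54 TPM in the control and 1492.67 and 995.27 TPM with both. EPCAM stood at 242.36 TPM in the control, 209.12 after NBT, 209.75 after trametinib and 218.24 with both. CDH1 stood at 85.43, 51.21, 86.91 and 57.01 TPM in the same order. The part of these differences in the results below was not tested. The mesenchymal marker VIM lay between 11.48 and 26.39 TPM. The labels name the cell line differently from library to library, and the name used here is the one in the titles. MIA PaCa-2 is commonly described as rich in vimentin and poor in E-cadherin (CDH1), and the identity of the line was not tested further. The 7 markers of acinar cells, leukocytes, endothelium and fibroblasts in the table were at most at 4.23 TPM, and that highest value was CD3E, a T cell marker, with trametinib. CD3E was listed at 0 in the control and NBT libraries and stood at 2.14 TPM with the combination.

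Because ATF4 and its partners act at CARE sites, the promoter sequences of the 10 carriers were searched first for the CARE letters TGATGNAA on both strands. The RefSeq windows (GRCh38.p14) run from 250 bases before to 50 bases after an annotated start, and the carriers have 17 of them. The motif was in 5 of these 17 windows (29.4%), 1 window in each of 5 genes, against 3.62% of 35116 windows of that length and 4.46% of 27305 genes. The stretches around the 5 matches follow, 5′ to 3′ on the gene's strand, with the match in capitals, since they show how the matched letters differ between genes. In SLC1A4 and SLC3A2 the match is on the opposite strand, so its letters appear as the reverse complement. They cover chr2:64989366-64989425 (plus strand) for SLC1A4, chr13:29595648-29595707 (minus) for SLC7A1, chr19:46784878-46784937 (minus) for SLC1A5, chr12:46266487-46266546 (minus) for SLC38A1 and chr11:62881710-62881748 (plus) for SLC3A2.
SLC1A4: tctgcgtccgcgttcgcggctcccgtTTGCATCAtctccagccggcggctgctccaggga
SLC7A1: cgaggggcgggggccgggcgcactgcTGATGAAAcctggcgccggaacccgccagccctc
SLC1A5: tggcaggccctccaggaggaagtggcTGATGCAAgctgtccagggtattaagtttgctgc
SLC38A1: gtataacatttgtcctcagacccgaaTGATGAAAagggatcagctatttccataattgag
SLC3A2: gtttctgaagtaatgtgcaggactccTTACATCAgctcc

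The genes themselves lie, on the minus strand, at chr16:87830023-87869507 (SLC7A5), chr13:29509414-29595688 (SLC7A1), chr19:46774883-46788594 (SLC1A5), chr12:46183063-46269043 (SLC38A1), chr12:46358188-46372773 (SLC38A2), chr1:43996483-44031462 (SLC6A9) and chr11:57484534-57515702 (SLC43A1). On the plus strand are SLC3A2 at chr11:62856109-62888860, SLC7A6 at chr16:68264526-68301819 and SLC1A4 at chr2:64988479-65023865. SLC38A1 and SLC38A2 thus lie near each other on chromosome 12 and are read in the same direction.

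Where the match lies relative to the transcripts that were counted differed between the 5 genes. In SLC1A4 it began 7 bases before the start of the transcript with most counts (NM_003038.5), and in SLC7A1 it began 7 bases after that of the leading transcript (NM_003045.5). In SLC1A5 it began 97 bases before the start of a minor transcript (NM_001145145.2), which lies inside the gene. In SLC38A1 it began 4 bases before an annotated start, and in SLC3A2 37 bases after one. Neither of these starts had a counted transcript with a matched start within 50 bases. In SLC38A1, some counted transcripts, such as XM_011538784.2 (99 counts in the control), had no matched start and were not placed. The windows of SLC7A5, SLC7A6, SLC38A2, SLC6A9 and SLC43A1 did not hold these letters, which says nothing of sites elsewhere in the genes. For comparison with the 5 stretches, the windows at the leading starts of the CD98 pair, neither of which holds the motif, are chr16:87869458-87869757 (minus) for SLC7A5 and chr11:62880646-62880945 (plus) for SLC3A2, with the start base in capitals.
SLC7A5: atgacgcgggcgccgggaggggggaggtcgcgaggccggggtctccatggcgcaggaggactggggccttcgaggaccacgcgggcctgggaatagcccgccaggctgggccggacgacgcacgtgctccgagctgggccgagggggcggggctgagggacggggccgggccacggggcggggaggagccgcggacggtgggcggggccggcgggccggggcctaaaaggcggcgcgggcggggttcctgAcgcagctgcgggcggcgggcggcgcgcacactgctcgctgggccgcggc
SLC3A2: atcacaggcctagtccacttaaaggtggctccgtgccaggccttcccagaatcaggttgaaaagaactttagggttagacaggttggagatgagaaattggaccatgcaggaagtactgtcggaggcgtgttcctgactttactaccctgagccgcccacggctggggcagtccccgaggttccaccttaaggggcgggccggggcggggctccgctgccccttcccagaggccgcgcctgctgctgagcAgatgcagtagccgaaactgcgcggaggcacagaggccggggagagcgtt
The G and C content was 80.3% in the SLC7A5 window and 61.3% in the SLC3A2 window.

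In the control cells the 10 carriers together took 0.582% of all counts, and their levels per length spanned more than 3 orders of magnitude. SLC7A5 was first at 1558.26 TPM, followed by SLC3A2 at 915.13, SLC1A5 at 304.27, SLC38A1 at 82.56, SLC7A1 at 74.44, SLC38A2 at 71.28 and SLC7A6 at 31.41 TPM. SLC1A4 (12.20 TPM, 531 counts) and SLC6A9 (11.95 TPM, 326 counts) lay next to each other, and SLC43A1 was last at 0.25 TPM. SLC7A5 ranked 84 among all genes of the control library by TPM and 63 in the trametinib library. The order was not the same in every library: with NBT, SLC1A5 (502.64 TPM) stood above SLC3A2 (359.69 TPM), and with the combination SLC3A2 (501.69 TPM) was again above SLC1A5 (432.55 TPM). SLC6A9, ninth in the control, stood above SLC1A4 and SLC7A6 in each treated library. The plot of levels by library shows these positions.

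**Figure D1:**
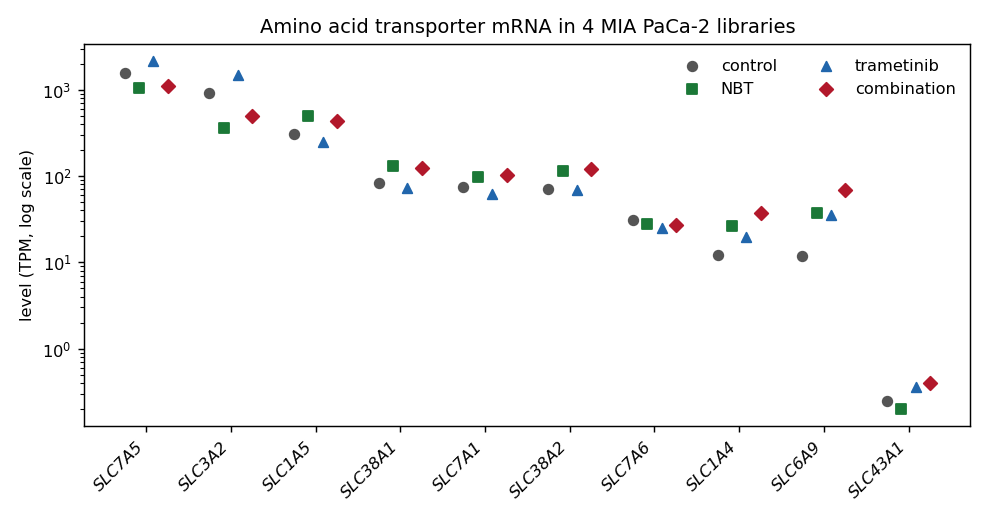
Level of each of the 10 carriers in TPM (log scale, y axis) in the control, NBT, trametinib and combination libraries, 1 point a library. SLC7A5 and SLC3A2 were lower with NBT and the combination than in the control, SLC6A9 was higher in each treated library, and SLC43A1 stayed under 1 TPM.

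With NBT, 6 of the 10 carriers had log2 ratios above 0 and 4 had ratios below 0. Genes were called with the limits the study set for its Poisson-based calls (a false discovery rate of 0.05 and a 2-fold change, a log2 ratio of 1 in size), here with a binomial test that compares the 2 libraries. In the NBT library 2 of the 10 carriers were called higher, SLC6A9 and SLC1A4, against 1.63% of 15888 genes, and 1 was called lower, SLC3A2, against 1.13%. With trametinib 1 of 10 was called higher, SLC6A9, against 3.86% of 16197 genes, and none lower, against 2.28%. With the combination 2 of 10 were called higher, SLC6A9 and SLC1A4, against 4.89% of 16229 genes, and none lower, against 3.83%. The median log2 ratio of the 10 carriers was 0.60 after NBT, 0.17 after trametinib and 0.51 with both, beside -0.01, 0.08 and 0.05 over all genes tested. Over the 9 carriers with at least 50 counts in a library, which leaves out SLC43A1, the medians were 0.75, -0.03 and 0.52, so that the sign with trametinib depended on SLC43A1. All 3 of these comparisons share the control library. In RNA from whole cultures, fewer cells of a kind and less of an mRNA in each cell cannot be told apart. The plot of log2 ratios shows the carriers in this order.

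**Figure D2:**
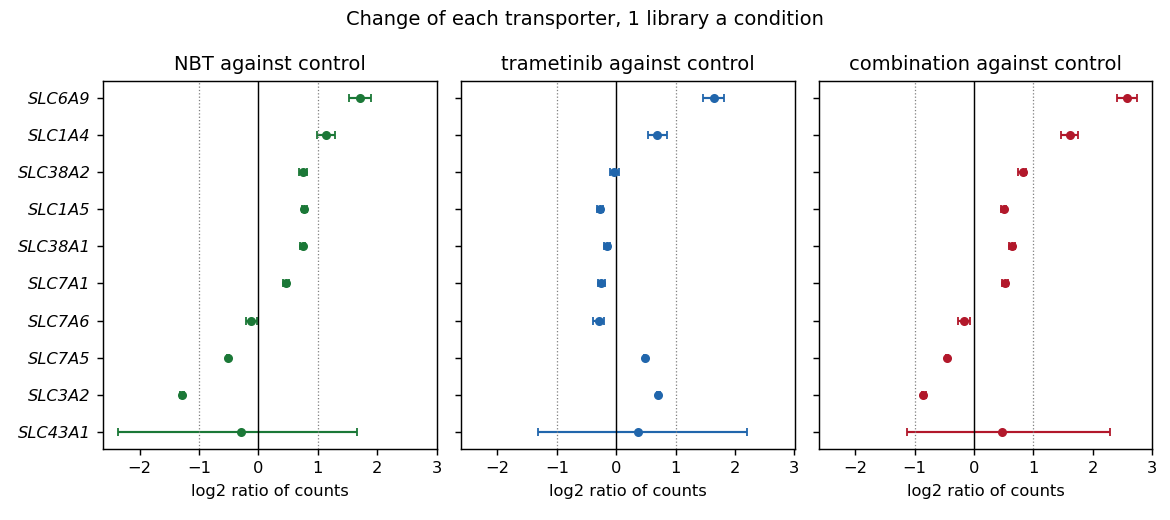
Log2 ratio of counts against the control (x axis) of the 10 carriers in the NBT, trametinib and combination libraries, with bars for 95% Clopper-Pearson intervals (counting error only) and dotted lines at the 2-fold limit. SLC6A9 and SLC1A4 lie past the limit with NBT and the combination and SLC3A2 below it with NBT, while the bars of SLC43A1 span 0 in each panel.

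SLC3A2, the shared heavy chain, was the carrier that NBT lowered past the limit. It had 16603 counts in the control, 7047 after NBT, 27310 after trametinib and 9655 with both. Both libraries with NBT were below the control and the trametinib library was above it. SLC3A2 fell by 1.29 on the log2 scale with NBT (interval -1.33 to -1.25), a level 0.41 times that of the control. Its log2 ratio was 0.70 with trametinib (0.68 to 0.73) and -0.85 with the combination (-0.88 to -0.81), neither past the 2-fold limit. The call with NBT was lost when a coefficient of variation of 0.2 between cultures was assumed.

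SLC7A5, the light chain that carries leucine, isoleucine and other large neutral amino acids, had the same order of libraries with smaller differences. It had 67239 counts in the control, 48834 after NBT, 94625 after trametinib and 51305 with both. Its log2 ratios were -0.51 (-0.53 to -0.49) after NBT, 0.48 (0.47 to 0.49) after trametinib and -0.45 (-0.47 to -0.44) with both, each inside the 2-fold limit. The trametinib level was thus 1.39 times, and the NBT level 0.702 times, that of the control.

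Since light chains reach the surface with the heavy chain, their mRNA levels were set side by side per length. SLC7A5 stood at 1.70 times the SLC3A2 level in the control, 2.91 times after NBT, 1.45 times after trametinib and 2.23 times with both. The sum of the SLC3A2-bound light chains in the table was 1.74, 3.06, 1.48 and 2.38 times the heavy chain in the same order, and SLC7A5 made up 93.4% to 98.5% of that sum. The cystine carrier SLC7A11, which is also bound to SLC3A2, rose from 3.02 TPM in the control to 51.72 TPM with the combination and stayed far below SLC7A5. SLC7A5 and SLC3A2 together held 80.8% of the summed TPM of the 10 carriers in the control, 60% after NBT, 87.1% after trametinib and 63.8% with both. The carriers' share of all counts was 0.505% after NBT, 0.767% after trametinib and 0.521% with both.

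SLC7A6 (y+LAT2), another SLC3A2 partner, which exchanges cationic for neutral amino acids, varied little. It had 1892, 1807, 1557 and 1765 counts in the control, NBT, trametinib and combination libraries. Its log2 ratios against the control were -0.12 (-0.21 to -0.02), -0.29 (-0.39 to -0.20) and -0.16 (-0.26 to -0.07). The gene shares 17321 bases with SLC7A6OS on the opposite strand, which had 1134 to 1570 counts, and whether counting used the strand is not given in the sources used here.

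SLC7A1 (CAT1), the carrier for arginine and lysine that works without a heavy chain, was higher in both libraries with NBT, at 7472 counts with NBT and 7824 with the combination, than in the control (5238) and with trametinib (4444). The log2 ratios were 0.46 (0.41 to 0.51) after NBT, -0.25 (-0.31 to -0.19) after trametinib and 0.52 (0.47 to 0.57) with the combination. None passed the 2-fold limit.

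The neutral amino acid exchangers SLC1A4 (ASCT1) and SLC1A5 (ASCT2) lay on opposite sides of the control with trametinib. SLC1A4, which carries serine, alanine, cysteine and threonine, had 531 counts in the control, 1208 after NBT, 865 after trametinib and 1698 with both, so every treated library was above the control. It rose 2.2-fold with NBT (log2 1.14, interval 0.99 to 1.29) and 3.06-fold with the combination (1.61, 1.47 to 1.76). With trametinib the log2 ratio was 0.69 (0.53 to 0.85). The call with NBT, too, was lost with an assumed coefficient of variation of 0.2. SLC1A5, the main glutamine exchanger of many tumor cells, had 8267, 14556, 6889 and 12238 counts in the control, NBT, trametinib and combination libraries. It was 1.70 times the control level with NBT (log2 0.77, 0.73 to 0.81) and 1.42 times with the combination (0.50, 0.46 to 0.54), and 0.826 times with trametinib (-0.28, -0.32 to -0.23).

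The sodium-coupled neutral carriers SLC38A1 (SNAT1) and SLC38A2 (SNAT2), which concentrate glutamine, alanine and serine inside the cell, showed nearly equal ratios with NBT. SLC38A1 had 6005 counts in the control, 10428 after NBT, 5458 after trametinib and 9769 with both. SLC38A2 had 3238, 5639, 3208 and 5954 counts in the same order. The NBT log2 ratio was 0.75 for both (0.70 to 0.79 for SLC38A1, 0.69 to 0.81 for SLC38A2), and with trametinib it was -0.15 (-0.20 to -0.10) for SLC38A1 and -0.03 (-0.10 to 0.04) for SLC38A2. With the combination the ratios were 0.64 (0.59 to 0.69) and 0.82 (0.75 to 0.88), and none of these values reached 1.

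SLC6A9 (GlyT1), a sodium- and chloride-coupled glycine carrier, rose with each drug and had the largest ratio of the 10 carriers in each comparison with the control. It had 326 counts in the control, 1107 after NBT, 1023 after trametinib and 2039 with both. The rise was 3.28-fold with NBT (log2 1.71, interval 1.53 to 1.90), 3.11-fold with trametinib (1.64, 1.46 to 1.82) and 5.98-fold with the combination (2.58, 2.41 to 2.75). The intervals of the single drugs overlapped each other, and that of the combination lay above both. SLC6A9 shares 5029 bases with CCDC24 on the opposite strand, which had 179, 128, 304 and 161 counts in the control, NBT, trametinib and combination libraries.

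SLC43A1 (LAT3), a facilitated carrier of large neutral amino acids, had 6, 5, 8 and 9 counts in the 4 libraries. Its interval included 0 in every comparison, from -2.36 to 1.66 with NBT, so that a difference was not detectable at this depth.

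What NBT added to trametinib was read from the combination and trametinib libraries. Against trametinib alone, none of the 10 carriers was called higher in the combination, against 2.64% of 16343 genes, and 1, SLC3A2, was called lower, against 3.73%. The SLC3A2 level was 0.342 times that with trametinib (log2 -1.55, -1.58 to -1.52) and the SLC7A5 level 0.524 times (-0.93, -0.95 to -0.92). For SLC7A1, SLC1A4, SLC1A5, SLC38A1, SLC38A2 and SLC6A9 the ratios were positive and lay between 0.77 and 0.94, just inside the limit, and for SLC7A6 the ratio was 0.13. The median of the 10 was 0.77, beside -0.05 over all genes tested.

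What trametinib added to NBT was smaller. No carrier was called in the combination against NBT alone, where 2.38% of 16250 genes were called higher and 2.16% lower. With no limit on the size of the ratio 7 of 10 passed the test, as did 6160 of the 16250 genes. Among the 9 carriers with at least 50 counts in a library, SLC6A9 had the largest ratio at 0.87 (0.76 to 0.97), then SLC1A4 at 0.48 (0.37 to 0.59) and SLC3A2 at 0.44 (0.40 to 0.49). SLC1A5 was lower at -0.26 (-0.30 to -0.23), SLC43A1, on 5 and 9 counts, had 0.78 (-0.90 to 2.76), and the median of the 10 was 0.06, beside 0.03 over all genes tested.

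The combination was then compared with the sum of the log2 ratios of the single drugs, for the 9 carriers with at least 50 counts in a library. None departed from the sum by 1 or more, where 0.897% of 11367 genes departed upward and 1.43% downward. SLC6A9 came closest, at 2.58 against a sum of 3.35, a departure of -0.77 (-0.98 to -0.56), and 7.81% of genes lay at least 0.5 below their sum. SLC7A5 was 0.42 below its sum of -0.03 (departure -0.42, -0.44 to -0.40): the opposite ratios of the single drugs nearly cancelled, while the combination stayed close to NBT alone. SLC3A2 departed by -0.26 (-0.32 to -0.21), SLC1A4 by -0.21 (-0.40 to -0.02), SLC7A1 by 0.30 (0.23 to 0.38) and SLC7A6 by 0.25 (0.11 to 0.38). SLC1A5, SLC38A1 and SLC38A2 lay within 0.09 of their sums. The plot of the combination against the summed ratios shows these distances.

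**Figure D3:**
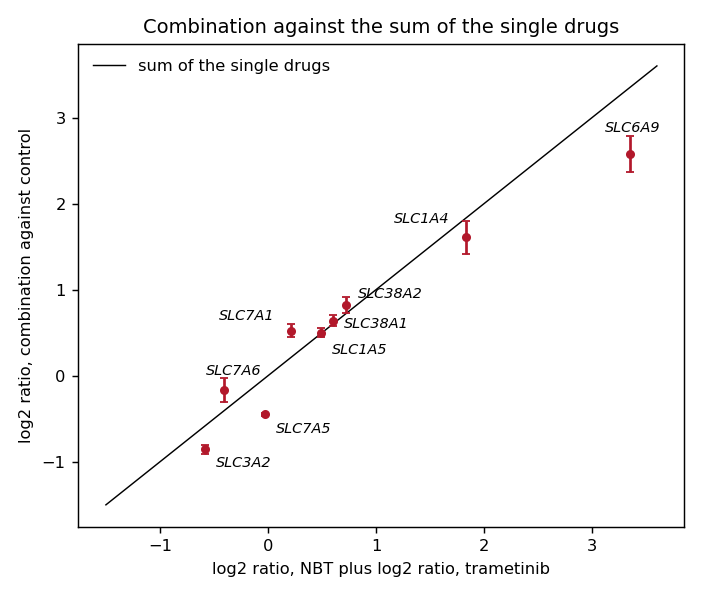
Log2 ratio of the combination against the control (y axis) beside the sum of the log2 ratios of NBT and trametinib (x axis) for the 9 carriers with at least 50 counts in a library; bars are 95% intervals of the departure (counting error only) and the line marks equality. SLC6A9 lies 0.77 and SLC7A5 0.42 below the line, and SLC1A5, SLC38A1 and SLC38A2 lie close to it.

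The transcript table showed which annotated transcripts carried these counts. They are estimates in which reads shared by several transcripts were divided by the counting program, and intervals on them cover counting only. For SLC3A2, the transcript of the downstream start (NM_001013251.3) held 81.0% of the gene's counts in the control and 90.1% with the combination. The 3 transcripts of the upstream start held the rest, with 3162 counts in the control, 1082 after NBT, 3724 after trametinib and 956 with both. Their share was 19% (exact interval 18.4 to 19.6) in the control, 15.3% (14.5 to 16.2) after NBT, 13.6% (13.2 to 14) after trametinib and 9.9% (9.31 to 10.5) with both. In the combination their log2 ratio against the control was -1.79 (-1.89 to -1.68), while that of the downstream transcript was -0.69 (-0.73 to -0.65).

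In SLC1A5 the transcript that starts 97 bases after the CARE match had 85 counts in the control, 252 after NBT, 154 after trametinib and 449 with both. Its log2 ratios were 1.51 (1.16 to 1.89), 0.84 (0.45 to 1.24) and 2.33 (2.0 to 2.69), while those of the leading transcript (NM_005628.3) were 0.73, -0.32 and 0.43. It remained a small part of the gene, from 1.03% of its counts in the control to 3.67% with the combination. The remaining counted transcript (NM_001145144.2), whose window does not hold the motif, was listed at 0 in the control. It had 281 counts after NBT, 102 after trametinib and 283 with both. Whether the motif has a part in any of these differences was not tested. The bar plot of transcript shares shows both genes.

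**Figure D4:**
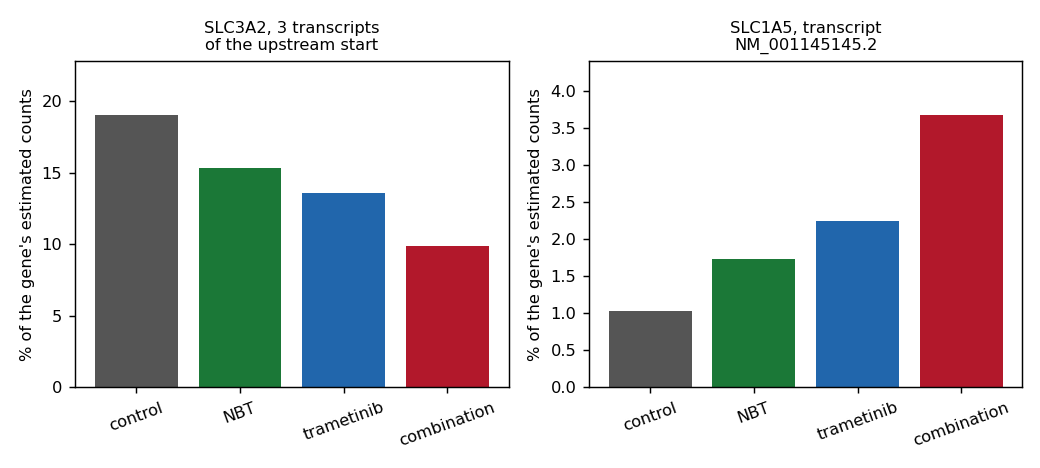
Share of the gene's estimated counts (%, y axis) in each library for the 3 SLC3A2 transcripts of the upstream start and for the SLC1A5 transcript NM_001145145.2, 1 bar a library. The SLC3A2 share goes from 19% in the control to 9.9% with the combination, and the SLC1A5 share from 1.03% to 3.67%.

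The SLC1A4 call with NBT was made on gene counts, part of which the counting program assigned to a second transcript. NM_001348407.2 was listed at 0 in the control and had 268 counts after NBT, 22 after trametinib and 282 with both. The leading transcript alone, whose start lies at the CARE match, had 531, 940, 843 and 1394 counts in the control, NBT, trametinib and combination libraries, and log2 ratios of 0.77 (0.62 to 0.93), 0.65 (0.50 to 0.81) and 1.33 (1.18 to 1.48). For SLC7A5, the leading transcript held 93.6% to 99.4% of counts, and XM_006721286.3 went from 29 counts in the control to 1384, 4420 and 2942 in the treated libraries. For SLC6A9, NM_001024845.3 was listed at 0 in the control and NBT libraries and at 204.90 and 415.37 estimated counts with trametinib and the combination, while 4 other transcripts had counts in all libraries. NM_001024845.3 matches the same GENCODE transcript and start as the leading NM_001328629.1, and how well their reads were told apart was not tested. The counts of SLC7A6 were spread over 8 transcripts whose leading one held from 8.8% to 49.7%.

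Of 22 further plasma membrane carriers 19 were in the table. With NBT 2 of the 16 tested were called higher, beside 1.63% of all genes, with trametinib 1 of 18, beside 3.86%, and with the combination 1 of 19, beside 4.89%, and none was called lower in these comparisons. SLC7A11, the cystine carrier, was called higher in all 5 comparisons, with 279 counts in the control, 2491 after NBT, 739 after trametinib and 5136 with both. SLC1A3, a glutamate carrier, was called lower in the combination against trametinib, at 324 and 665 counts (log2 -1.09). Named after their values were seen, the remaining calls were SLC7A7 with NBT and SLC3A1 with the combination against each single drug, each on at most 8 counts. SLC38A5, also named after its values were seen, had the highest level of this list and was not called, at 185.27 TPM in the control and 153.49 TPM with the combination. The median log2 ratio of the list with NBT was -0.06, beside -0.01 over all genes tested. Over the 7 genes of the list with at least 50 counts in a library it was -0.23. None of 6 lysosomal carriers and none of 10 mitochondrial carriers was called in any of the 5 comparisons, where 1.13% to 4.89% of all genes were called in a direction, so that 0 calls in lists of this size is no result about them. Their medians with the combination were 0.53 and -0.40, beside 0.05 over all genes tested.

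Calls among the regulators of the amino acid response were most frequent in the libraries with NBT. Of 16 regulators and marker targets, 8 were called higher after NBT, 2 after trametinib and 10 with the combination, beside 1.63%, 3.86% and 4.89% of all genes. In the combination 10 of 16 were called higher against trametinib alone, beside 2.64% of all genes, and 1 of 16 against NBT alone, near the background of 2.38%. ATF4 mRNA itself was not called, with 8712, 13221, 10493 and 13418 counts in the control, NBT, trametinib and combination libraries and a log2 ratio of 0.55 with NBT. Its partners CEBPB and CEBPG rose with NBT by log2 1.42 and 1.03. Among the marker targets the NBT ratios were 2.86 for SESN2, 2.67 for DDIT3, 2.35 for CHAC1, 2.03 for ASNS (asparagine synthetase), 2.02 for TRIB3 and 1.14 for PPP1R15A, all called higher.

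With trametinib the called regulators were ATF3 (log2 1.68) and DDIT3 (1.16). With the combination ATF3 was called higher at 3.02, DDIT3 at 3.66, SESN2 at 3.42, CHAC1 at 2.66, TRIB3 at 2.28, ASNS at 2.12, CEBPB at 1.69, CEBPG at 1.44 and PPP1R15A at 1.48. The eIF2 kinase EIF2AK3 (PERK) was called higher at 1.53, and ATF5 was called lower at -1.01. The other kinases EIF2AK4 (GCN2), EIF2AK1 and EIF2AK2 had combination ratios of -0.63, -0.40 and -0.01, and NUPR1 had 66 to 93 counts and was not called. Of 12 amino acid sensors of mTORC1, the kinase complex that reads amino acid supply, only SESN2, which is also in the regulator list, was called in any comparison, and 1 of 12 is near the 1.63% to 4.89% of all genes called higher.

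The genes nearest to the 3 carriers with the largest ratios were sought among 10661 genes with at least 100 counts in a library, by the Euclidean distance of the 3 log2 ratios against the control. For SLC6A9 they were PCK2 (distance 0.32), CTH (0.37) and ITPKC (0.39). PCK2, a mitochondrial enzyme that makes phosphoenolpyruvate, had ratios of 1.98, 1.46 and 2.54 with NBT, trametinib and the combination, and CTH, which makes cysteine from cystathionine, had 1.84, 1.29 and 2.55. For SLC1A4 they were GOLPH3L (0.12), PRSS16 (0.14) and SLC38A6 (0.21), and for SLC3A2 they were CELSR2 (0.25), PAK6 (0.26) and EPS8L2 (0.28). These are distances over 3 ratios that share 1 control library.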

How the data were processed

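A BGISEQ-500 instrument read total RNA from MIA PaCa-2, 1 library for each of 4 conditions. The labels describe removal of bacterial rRNA and random priming, a step not made for human rRNA. The submitters' processing notes name Bowtie2 2.2.5, RSEM 1.2.8 and hg38. The authors deposited, per gene (16834) and per RefSeq transcript (70268), raw estimated counts together with TPM and FPKM values. Expected counts were not whole for 53.9% of genes in the deposited table, since reads shared between features are divided.

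Estimated counts were rounded and scaled to each library's sum, and log2 ratios were computed with 0.5 reads added. Calls used an exact two-sided binomial test, Benjamini-Hochberg adjusted at 0.05 over all genes counted in one library or the other, with an absolute log2 ratio of at least 1. This compares libraries, not conditions. Intervals are 95% Clopper-Pearson intervals of a ratio of 2 counts or of a share, and cover counting error only, since there was 1 library a condition. PCR reads are not independent molecules, and the intervals do not allow for that. Intervals of departures combine the counting errors of the 4 libraries.

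The carriers and the 5 further lists were chosen with earlier results of these data known, so they give no independent support. Named genes were the 10 carriers, list genes called in any comparison with at least 50 counts in a library, all regulators with at least 50 counts, and the 3 nearest genes of the 3 carriers with the largest ratios. Promoter windows, gene positions and transcript starts came from RefSeq (GRCh38.p14) and GENCODE v29. Some genes are not reported here. The scripts were tested on simulated data. Alternatives were TMM and median-of-ratios scaling, TPM with a pseudocount of 0.1, 5 reads added, summed transcript counts, a limit of 10 counts, negative binomial exact tests and other log2 limits. Python 3.11.15, scipy 1.17.1, R 4.3.3, edgeR 4.0.16 and DESeq2 1.42.0 were used.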

Additional observations from a re-analysis of the deposited data

Results flagged for a closer look

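The ratio of trametinib to no trametinib had opposite signs for SLC7A1, at -0.25 on the log2 scale without NBT and 0.05 with it. The value in the presence of NBT was near 0 (interval 0.01 to 0.10), and it was 0.02 with TMM and 0.03 with median-of-ratios scaling. The NBT ratio had opposite signs for SLC7A6, at -0.12 without trametinib and 0.13 with it. Each rests on 1 library a condition. The differences between the drug backgrounds are the departures from additivity given above, 0.30 (0.23 to 0.38) for SLC7A1 and 0.25 (0.11 to 0.38) for SLC7A6. Those intervals cover counting error only, and variation between cultures was not measured.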

How the results depend on the processing

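With 1 library a condition, leaving out a replicate was not possible. No paired analysis was possible because each group holds 1 library. All 250 recomputed log2 ratios of single carriers (2 scalings, TPM, 5 reads added and summed transcript counts) kept their direction and their side of the limit. Calls rest on assumptions about variation between cultures, which was not measured. With a negative binomial exact test and an assumed coefficient of variation of 0.2, 1 carrier (SLC6A9) was called with NBT in place of 3, the calls of SLC3A2 and SLC1A4 being lost, and with 0.4 the number was 0 with NBT, with trametinib, with the combination and for the combination against trametinib. A log2 limit of 2 left 0 carriers with NBT, 0 with trametinib, 1 with the combination and 0 for the combination against trametinib. Among all genes it left 131, 372, 433 and 275 in the same order. With no limit on size the numbers were 9, 8, 9 and 9, and 7 for the combination against NBT. Among all genes tested 5703 of 15888, 6993 of 16197, 8132 of 16229, 7514 of 16343 and 6160 of 16250 passed in the same order. Under TPM the carriers' median with NBT was 0.54. With a limit of 0.5 for a departure from additivity, 1 carrier (SLC6A9) departed, downward, as did 7.81% of 11367 genes. By share of TPM in place of counts, the upstream SLC3A2 transcripts went from 17.1% in the control to 8.73% with the combination and the SLC1A5 transcript from 1.60% to 5.53%. SLC7A5 per SLC3A2 was the same by FPKM as by TPM.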
